A study of Mus musculus with 12 samples.

Results

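A set of 10 genes of the Nodal pathway was followed through a time course of RAF activation in mouse embryonic stem cells. They were the ligands Nodal and Gdf3, the co-receptor Tdgf1, the convertase Furin, the receptors Acvr1b and Acvr2b, the antagonists Lefty1 and Lefty2, and the nuclear factors Foxh1 and Skil. The genes were taken by symbol from the deposited count table, where all 10 were found among 25897 symbols, and all 10 passed the filter on low counts.

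The cells were E14tg2a embryonic stem cells of 129SV background that carry cRAF-ERT2, a fusion of the kinase cRAF to a ligand-binding domain of the oestrogen receptor which 4OHT switches on, and with it the kinase ERK. Libraries are named here by time and clone, as in 2 h b. The 4 groups were untreated cells (0 h) and cells given 250 nM 4OHT for 1, 2 or 4 h, each with 1 library from each of the clones a, b and c. Every group, the untreated one included, had been grown with serum, LIF and 2 µM Chir99021, then kept for 24 h before treatment with serum, LIF and the FGF receptor inhibitor PD173074 at 250 nM, and given 5 mM ethynyl uridine for the last 15 min. The labels do not give the promoter that drives the construct, nor whether the libraries of a clone came from separate cultures, so p-values measure the spread between these libraries. Libraries were made from total RNA after removal of ribosomal RNA.

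Nodal is a secreted ligand of the TGF-beta family which, held by the co-receptor Cripto (the product of Tdgf1), assembles type I and type II activin receptors and leads to phosphorylation of SMAD2 and SMAD3. These enter the nucleus with SMAD4 and act with partners such as FOXH1 on targets that include Nodal itself and the Lefty genes, whose products block the ligand and so close a feedback loop. In the early embryo the pathway patterns the epiblast and directs mesendoderm, and mouse embryonic stem cells express most of its parts.

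Library totals ran from 24213641 to 31435301 counts. The ERK-responsive genes Spry4 and Dusp6 were higher in every treated library than in every untreated one, and at 4 h Spry4 reached 290.0 CPM (the count scaled to a common library size, as edgeR gives it) in clone a against 859 in clone b and 625 in clone c. Reads of Esr1, the gene that the ERT2 domain comes from, were at 9.44, 93.4 and 38.8 CPM in libraries 0 h a, 0 h b and 0 h c, so clone a had the lowest Esr1 level and the lowest 4 h Spry4 level. At 4 h Esr1 was at 18.2, 260 and 39.1 CPM, higher than untreated in clones a and b and nearly level in clone c. Its change at 4 h was 1.17 ± 1.22 (adjusted p = 0.486, and 0.00868 with clone as a block in the test). Of the 7 embryonic stem cell markers all were tested, and their summed level was 3676 to 3999 CPM untreated and 3738 to 3843 CPM at 4 h. Within that sum Nanog fell at 4 h (−1.31 ± 0.13, adjusted p = 0.000126), from a mean of 699 to 282 CPM, while Pou5f1 (0.60 ± 0.10, 0.0019) and Utf1 (1.6 ± 0.23, 0.000737) rose. The summed level of primitive streak and mesoderm markers went from 4.53 to 5.47 CPM untreated to 20.1 to 38.2 CPM at 4 h, with 4 of 6 tested, and that of feeder fibroblast markers from 9.31 to 9.69 CPM to 16.8 to 32.5 CPM, with 3 of 6 tested and Postn at 0 in every library up to 2 h. In the streak list Evx1 and Eomes made up most of the rise, from means of 1.03 and 2.98 CPM to 13.4 and 15.1 CPM. Mixl1 was at 0.328 and 0.253 CPM (adjusted p = 0.575). Of the feeder list Thy1 made up most of the rise, from a mean of 3.42 to 17.0 CPM, while Fbn1 was at 5.58 and 5.87 CPM (adjusted p = 0.763) and Col1a1 at 0.326 and 0.816 CPM. Trophoblast markers summed to 14.7 to 28 CPM untreated and 21.8 to 51.0 CPM at 4 h, neural markers to 35.4 to 42.4 CPM and 66.4 to 112 CPM, and primitive endoderm markers to 6.21 to 14.9 CPM and 4.41 to 11.9 CPM. Among trophoblast markers Cdx2 went from a mean of 0.0321 to 17.4 CPM. Tfap2c was at 21.8 and 16.3 CPM (adjusted p = 0.421, and 0.0459 with clone as a block in the test). Among neural markers Nes rose by 1.33 ± 0.25 (0.00295) and Sox1 fell by 1.87 ± 0.42 (0.00686). What part such cells have in the results below was not tested, and in bulk RNA fewer cells of a type cannot be told apart from less RNA per cell.

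The members followed different courses. Nodal was highest at 1 h and lowest at 4 h, Skil peaked at 2 h, Lefty1 was lower in every clone from 2 h and Lefty2 at 4 h, while Tdgf1, Gdf3 and Acvr1b were lower and Furin and Foxh1 higher at 4 h. Each change below is a log2 ratio with its standard error (SE) from edgeR's quasi-likelihood test of group means over all 12 libraries, and adjusted p is Benjamini-Hochberg over 14185 genes, with 0.05 as the threshold. Because every clone gave 1 library at each time, the same test was also run with clone as a block. Its value is given where it alters the call of a change that is printed here with an adjusted p. The 3 treated times are compared with the same untreated libraries, so their changes are not independent of each other.

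At 1 h none of the 10 members passed the threshold, where 0.0775% of all genes did. At an unadjusted p under 0.05 there were 2, Nodal and Acvr2b, against 11.5% of all genes, and DESeq2 and limma-voom also called 0. With clone as a block Nodal alone was called, against 6.99% of all genes. At 2 h 1 member was called, Skil, against 16.2% of all genes, and with the block 4, namely Nodal, Foxh1 and Skil higher and Lefty1 lower, against 40.6%. At 4 h 5 members were called, against 33.1%: Furin and Foxh1 were higher (18.0% of all genes were) and Gdf3, Tdgf1 and Acvr1b lower (15.1%). With the block all 10 were called at 4 h, 4 higher and 6 lower, where 52.0% of all genes were called, 26.2% higher and 25.7% lower.

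Between treated times, 0 members were called from 1 to 2 h, where 0.0634% of all genes were. At an unadjusted p under 0.05 there was 1, Skil, against 16.2%, which DESeq2 called and limma-voom did not. With the block 2 were called, Lefty1 and Skil, against 12.6%. From 2 to 4 h 2 members were called, Nodal and Tdgf1, both lower, where 4.68% of all genes were called and 1.41% were lower. With the block 7 were called, 6 of them lower, against 22.0% called and 9.98% lower. Over the 3 treated times together edgeR's F test called 5 members (Nodal, Tdgf1, Furin, Acvr1b and Skil) against 27.4% of all genes, and 9 against 56.8% with the block. The untreated and treated libraries did not overlap for 2 members at 1 h, 1 at 2 h and 6 at 4 h, against 19.9%, 37.4% and 44.8% of all genes. At 1, 2 and 4 h the members had median changes of 0.19, 0.12 and −0.28, beside −0.02 over all genes at each time. With clone b or clone c left out and no block, 0 members were called at 2 h and at 4 h. Of the other pathway genes described below, these fits called 1 and 0 at 2 h, against 6 higher and 1 lower with all clones. The share of all genes called in these fits is not given here, so such counts do not set the members apart from other genes.

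**Figure D1:**
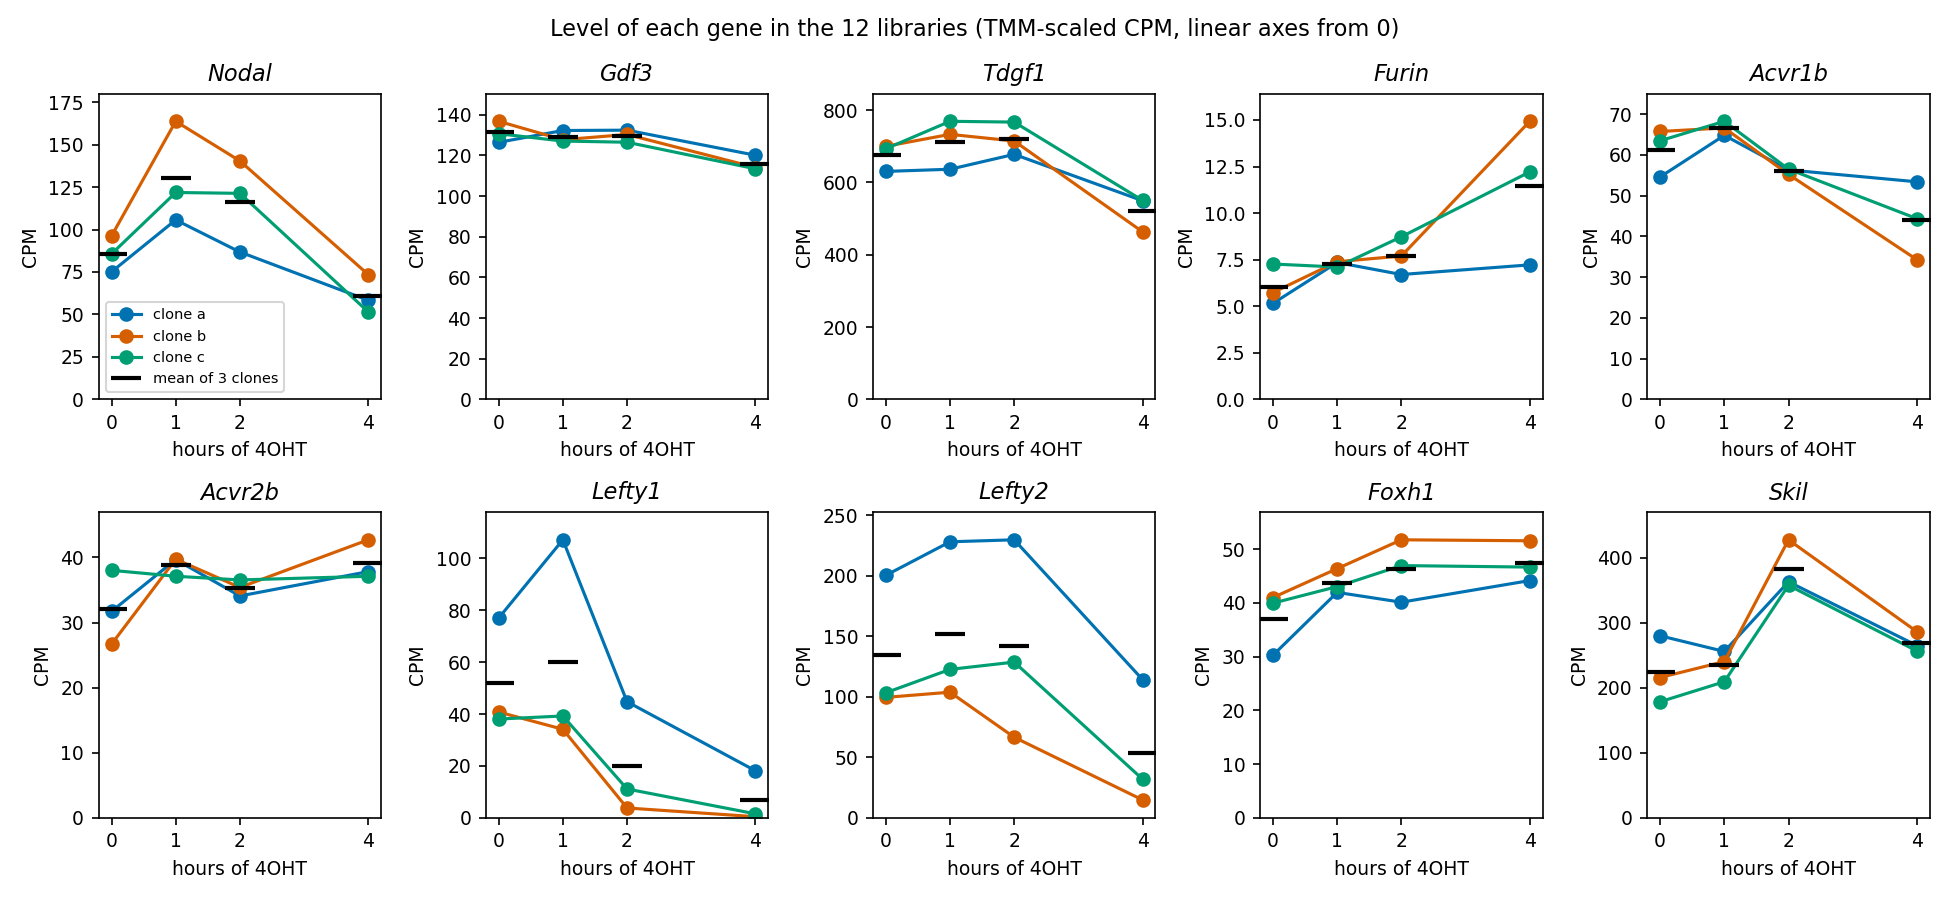
Level of each of the 10 genes (vertical axes, CPM from 0) in every library against hours of 4OHT, with a line for each clone and a black bar for the mean of 3 clones. Nodal is highest at 1 h in every clone, though nearly level from 1 to 2 h in clone c. Skil is highest at 2 h in every clone, and the Lefty1 and Lefty2 lines end lowest at 4 h with clone a above clones b and c throughout.

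Nodal (chr10:61417972-61425338, plus strand, GRCm38) was at 75.1, 96.2 and 85.6 CPM in libraries 0 h a, 0 h b and 0 h c. It was at 106, 164 and 122 CPM at 1 h, at 86.7, 140.4 and 121 CPM at 2 h, and at 58.3, 73.4 and 51.5 CPM at 4 h. Every clone was highest at 1 h and lowest at 4 h, though in clone c the 2 h level was 99.6% of that at 1 h. The change from 1 to 2 h was −0.17 ± 0.20, with adjusted p = 0.722. Both the 1 h and the 4 h libraries lay apart from the untreated ones, while the 2 h libraries overlapped them. The change from untreated was 0.61 ± 0.20 at 1 h, with adjusted p = 0.307, and with the block 0.59 ± 0.10, with adjusted p = 0.00977. At 2 h it was 0.44 ± 0.20, adjusted p = 0.147 and 0.00674 with the block, and at 4 h −0.49 ± 0.20, adjusted p = 0.0865 and 0.00192 with the block. From 2 to 4 h Nodal fell by 0.93 ± 0.20, with adjusted p = 0.0287. That call was lost without 2 h b (adjusted p = 0.103), 2 h c (0.0852) or 4 h c (0.123) and with the 2 groups alone in the fit (0.11), and without 2 h a the rise at 2 h was called (0.61, adjusted p = 0.0446).

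Gdf3 (chr6:122605403-122610087, minus strand), a related ligand that is abundant in pluripotent cells, stayed within 126 to 137 CPM in all 9 libraries up to 2 h. Its level was 126, 137 and 131 CPM untreated and 120.1, 114 and 113 CPM at 4 h, so all 3 of the 4 h libraries lay below all untreated ones. It fell by 0.18 ± 0.06 at 4 h, with adjusted p = 0.0277. The change from 2 to 4 h was −0.16 ± 0.06 (adjusted p = 0.116, and 0.0309 under the block). The fall at 4 h was a small one, to 95.0%, 83.4% and 86.8% of the untreated level of clones a, b and c. The call was lost without 0 h b (adjusted p = 0.1), 0 h c (0.0536), 4 h b (0.084) or 4 h c (0.0977), with no filter on low counts (0.0803), and with the 2 groups alone in the fit (0.114). Under the block it was lost without clone b (0.157) or clone c (0.135).

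Tdgf1 (chr9:110939603-110946158, minus strand) encodes the membrane-anchored co-receptor through which Nodal reaches its receptors. Its level was 631, 700.1 and 693 CPM untreated, 637, 733 and 769 CPM at 1 h and 678, 715 and 767 CPM at 2 h. At 4 h it was at 549.5, 463 and 550.4 CPM, below every library of the earlier times. It fell by 0.37 ± 0.09 at 4 h, with adjusted p = 0.0106, a call that held with each library left out in turn but not without all of clone b (0.144) or clone c (0.0983). Between 2 and 4 h the fall was 0.47 ± 0.09, with adjusted p = 0.0192, and this call was lost without 2 h b (0.0674), 2 h c (0.0737), 4 h b (0.0652) or 4 h c (0.0618) and with the 2 groups alone in the fit (0.102). At 4 h clone a kept 87.1%, clone b 66.2% and clone c 79.4% of its untreated level.

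Nodal and Tdgf1, the members called between 2 and 4 h, are shown here with the 250 bases before their annotated starts, as RefSeq gives them on GRCm38.p6, read 5′ to 3′ on the strand of the gene. Capitals mark matches on either strand to 3 of 5 motifs searched: TGTNNATT for FOXH1, CAGAC for SMADs and GGGCGTG for Kruppel-like factors. The other motifs were CCGGAA for ETS factors and ATGCAAAT for OCT4, and they had no match in either sequence.
Nodal upstream, chr10:61417722-61417971, plus strand: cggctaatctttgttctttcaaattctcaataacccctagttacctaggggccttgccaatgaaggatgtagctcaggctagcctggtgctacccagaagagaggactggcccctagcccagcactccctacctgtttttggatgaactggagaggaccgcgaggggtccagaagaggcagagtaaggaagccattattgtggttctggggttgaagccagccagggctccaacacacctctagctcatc
Tdgf1 upstream, chr9:110946159-110946408, minus strand: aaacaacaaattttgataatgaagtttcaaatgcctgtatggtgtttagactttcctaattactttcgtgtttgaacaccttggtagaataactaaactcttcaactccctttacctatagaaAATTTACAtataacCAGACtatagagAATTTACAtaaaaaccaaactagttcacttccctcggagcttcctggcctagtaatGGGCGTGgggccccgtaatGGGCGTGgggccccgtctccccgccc
The Tdgf1 sequence held 2 matches to the FOXH1 motif, starting 127 and 101 bases before the gene, with 1 CAGAC between them at 113, and 2 copies of GGGCGTG at 45 and 26. The Nodal sequence held none of the 5 motifs. Among 32851 such 250-base sequences of the RefSeq table, 10.9% held the FOXH1 motif, 42.2% CAGAC, 7.55% GGGCGTG, 12% CCGGAA and 1.6% ATGCAAAT. Upstream sequences were found for 5 of the 10 members: Nodal, Tdgf1, Furin, Acvr1b and Acvr2b, and not for Lefty1, Lefty2, Gdf3, Foxh1 and Skil. The motifs were picked with these sequences in view, and a match is a run of letters, not a measured binding site.

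Furin (chr7:80388585-80405436, minus strand), a proprotein convertase that can cut the Nodal precursor, had the lowest level of the members for its length. It was at 5.15, 5.73 and 7.27 CPM untreated, 7.35, 7.39 and 7.10 CPM at 1 h and 6.70, 7.70 and 8.73 CPM at 2 h. At 4 h it was at 7.22, 14.9 and 12.2 CPM, so clones b and c lay above all other libraries and clone a lay within the untreated range. Furin rose by 0.92 ± 0.23 at 4 h, with adjusted p = 0.0117, and the call was lost without 4 h b (0.68, adjusted p = 0.0519) and with the 2 groups alone in the fit (0.0503). From 2 to 4 h the change was 0.57 ± 0.23 (adjusted p = 0.183), or 0.55 ± 0.18 (0.0478) with the block, and 0.82 (0.0146) without 4 h a. Its exons share 118 bases, or 1.29% of their length, with the antisense gene Gm44851, whose reads cannot be told apart without strand.

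Acvr1b (chr15:101174067-101213684, plus strand) encodes ALK4, the type I receptor that phosphorylates SMAD2 and SMAD3. It was at 54.6, 65.7 and 63.5 CPM untreated, 64.8, 66.6 and 68.2 CPM at 1 h and 56.3, 55.2 and 56.5 CPM at 2 h. At 4 h it was at 53.4, 34.3 and 44.3 CPM, below the lowest untreated library, though in clone a only by a small margin. It fell by 0.48 ± 0.13 at 4 h, with adjusted p = 0.0171. The 4 h level was 97.8%, 52.1% and 69.9% of the untreated one in clones a, b and c, and the call was lost without 0 h b (−0.42, adjusted p = 0.0598) and with the 2 groups alone in the fit (0.0722). Under the block it was lost without clone b (0.0929) or clone c (0.106).

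Acvr2b (chr9:119402118-119434995, plus strand), a type II receptor for the same ligands, was at 31.7, 26.7 and 38.0 CPM untreated and at 37.8, 42.7 and 37.1 CPM at 4 h. Clones a and b were higher at 4 h and clone c was slightly lower, so the groups overlapped. The change was 0.29 ± 0.12 with adjusted p = 0.0761, and 0.0461 under the block, and without 0 h c it was 0.43 with adjusted p = 0.0132. Under the block the call held without clone c (0.0266) but was lost without clone a or clone b. The receptor pair thus had changes of opposite sign at 4 h, of which only that of Acvr1b passed without the block.

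The Lefty genes encode secreted antagonists that bind Nodal and its co-receptor, and they lie in a tandem pair on chromosome 1, Lefty2 at chr1:180893108-180899103 and Lefty1 at chr1:180935022-180938400, both on the plus strand and 35918 bases apart. Their coding sequences of 1104 bases each are identical at 1014 positions, or 91.8%, in the GRCm38 annotation. The 60-base coding stretch with the most differences is shown because its reads do tell the genes apart, with the 18 differing bases in capitals; it lies at chr1:180935143-180935202 in Lefty1 and chr1:180893217-180893276 in Lefty2.
Lefty1, differing stretch: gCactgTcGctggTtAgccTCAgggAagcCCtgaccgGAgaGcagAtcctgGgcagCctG
Lefty2, differing stretch: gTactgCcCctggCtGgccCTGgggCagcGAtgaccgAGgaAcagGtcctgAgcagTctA
Of all 50-base words in the exons, 17.9% of those of Lefty1 and 12% of those of Lefty2 occur in the other gene, and of 100-base words 5.85% and 3.86%. How the authors' counting treated reads that match both was not stated, so the level of each gene may be uncertain by reads in such stretches.

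Lefty1 was at 77.0, 40.8 and 38.1 CPM in libraries 0 h a, 0 h b and 0 h c and at 107, 34.1 and 39.2 CPM at 1 h. It was at 44.7, 3.8 and 11.1 CPM at 2 h, and at 18.1, 0.441 and 1.54 CPM at 4 h, the last being 472, 13 and 39 counts. Every clone was lower at 2 h than untreated and lower again at 4 h, and the 4 h libraries all lay below the untreated ones, while at 2 h clone a still overlapped them. Against untreated, 4 h clone a kept 23.6%, clone b 1.08% and clone c 4.05% of its own level.

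At 1 h Lefty1 had a change of 0.21 ± 0.99, with adjusted p = 0.969. The change of Lefty1 in group means was −1.39 ± 1.02 at 2 h, with adjusted p = 0.358, and −2.96 ± 1.1 at 4 h, with adjusted p = 0.059. With clone as a block, which takes out the higher level of clone a, it was −1.91 ± 0.50 at 2 h (adjusted p = 0.0113) and −3.62 ± 0.56 at 4 h (adjusted p = 0.000331). Without the block the 4 h change was called by DESeq2 (adjusted p = 0.0413) and limma-voom (0.0171). It was also called without 4 h a (−5.75, adjusted p = 0.00372) or 2 h a (0.0401) or 2 h b (0.045). With 1 library left out in turn the 4 h change ran from −5.75 to −2.40. Of 24 alternative fits, with and without the block, 10 called it, and in the others adjusted p reached 0.292. From 1 to 2 h the block gave −1.94 ± 0.49 (0.0319), against −1.60 ± 1.03 (0.469) without it. Between 2 and 4 h it gave −1.71 ± 0.56 (adjusted p = 0.0485), against −1.57 ± 1.08 (0.448) without it. With no block and 1 library left out in turn, the change between 2 and 4 h ran from −4.36 (0.0393, without 4 h a) to −0.16.

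Lefty2 was at 200.4, 99.6 and 103 CPM untreated, 228, 104 and 123 CPM at 1 h and 229.8, 66.6 and 129 CPM at 2 h. At 4 h it was at 114, 14.8 and 31.9 CPM. At 2 h clone b was lower than untreated and clones a and c were higher, so no common direction was seen. At 4 h every clone was lower than its own untreated library, at 57.0%, 14.9% and 30.9%, but clone a at 4 h was still above untreated clones b and c. The change at 4 h was −1.33 ± 0.66 with adjusted p = 0.145, and under the block −1.65 ± 0.29 with adjusted p = 0.000767. With no block and 1 library left out in turn, it ran from −2.53 (adjusted p = 0.00715, without 4 h a) to −0.88. Between 2 and 4 h it was −1.40 ± 0.66 (adjusted p = 0.259), and with the block −1.62 ± 0.29 (0.00335). With no block and 1 library left out, that change ran from −2.60 (0.0211, without 4 h a) to −0.86.

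With the block, Lefty1 at 2 h and both Lefty genes at 4 h were called and lower by 2-fold or more, as were 3.36% of all genes at 2 h and 5.14% at 4 h. Between 2 and 4 h both Lefty genes were again called and lower by 2-fold or more, as were 0.508% of all genes. The clone with the smallest change in both genes at 4 h, clone a, was also the one with the lowest Esr1 and Spry4 levels, and the part that these play in these changes was not tested. In all 3 clones the change of Lefty1 from untreated was below that of Lefty2 at 2 and 4 h: the log2 change of Lefty1 minus that of Lefty2 was −0.98 for clone a, −2.82 for b and −2.09 for c at 2 h (mean −1.96, SD 0.93, n = 3) and −1.27, −3.57 and −2.87 at 4 h. An exact sign-flip test over 3 clones cannot go below p = 0.25, so it could not pass the threshold at this number of clones.

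**Figure D2:**
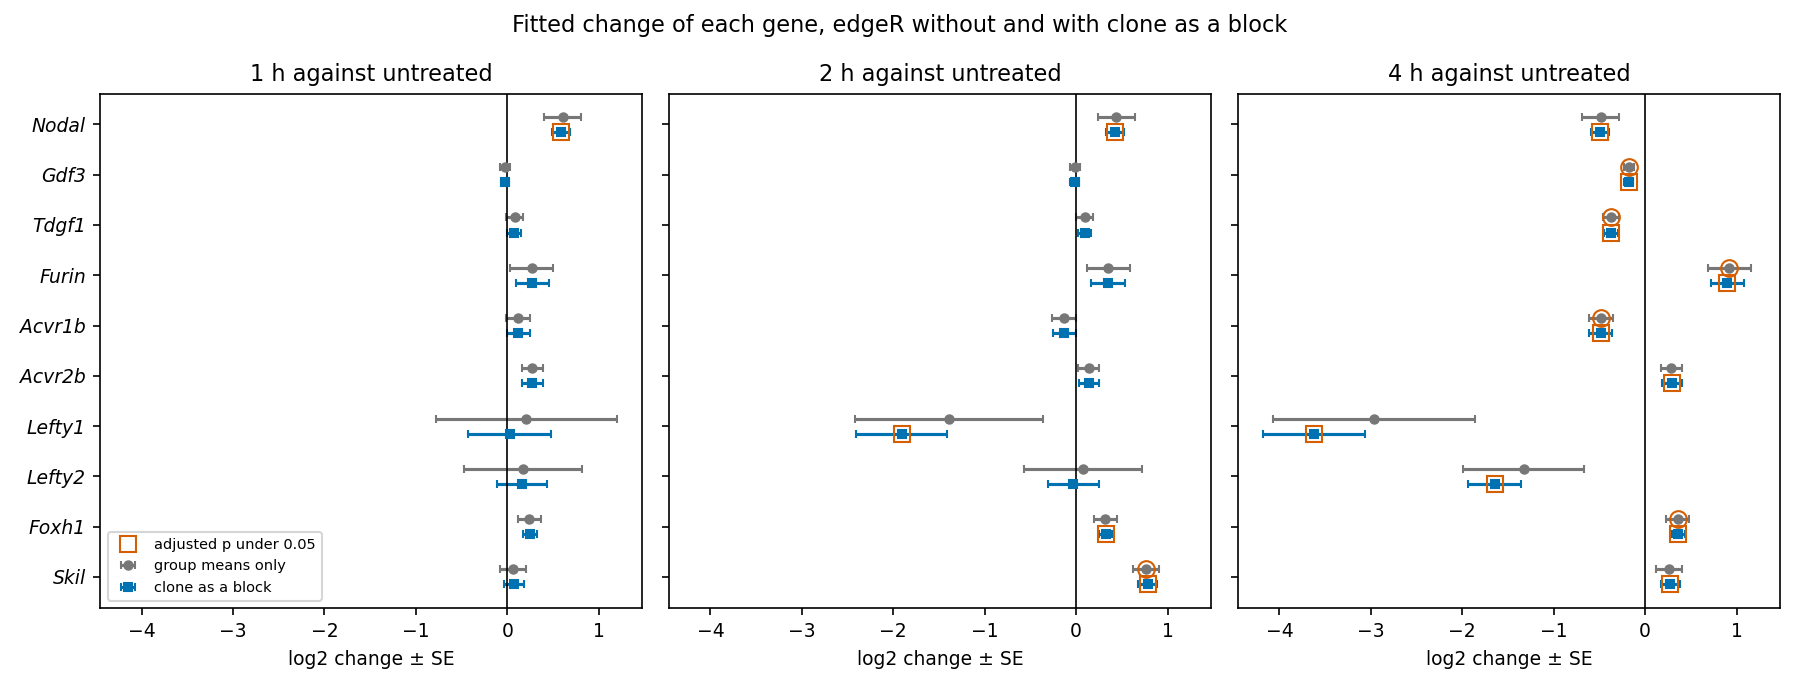
Fitted log2 change with its SE (horizontal axes) of each gene at 1, 2 and 4 h against untreated, from group means alone (grey circles) and with clone as a block (blue squares), with an orange outline where adjusted p is under 0.05. The Lefty bars are the widest without the block, and at 4 h 5 circles and all 10 squares are outlined.

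The ratio of Nodal to its antagonists was taken within each library. Nodal over Lefty1 was 0.975, 2.36 and 2.25 in libraries 0 h a, 0 h b and 0 h c, and 0.986, 4.80 and 3.10 at 1 h. It was 1.94, 37.0 and 10.9 at 2 h, and 3.22, 166 and 33.4 at 4 h. In each clone the ratio was higher at each later time than at the one before, and at 4 h all 3 ratios were above every untreated one. Nodal over Lefty2 moved less, from 0.374, 0.966 and 0.828 untreated to 0.510, 4.96 and 1.61 at 4 h. Lefty2 over Lefty1 was nearly alike in the untreated clones, at 2.60, 2.44 and 2.72, and reached 5.14, 17.5 and 11.6 at 2 h and 6.30, 33.5 and 20.7 at 4 h. These are ratios of CPM not scaled to gene length.

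**Figure D3:**
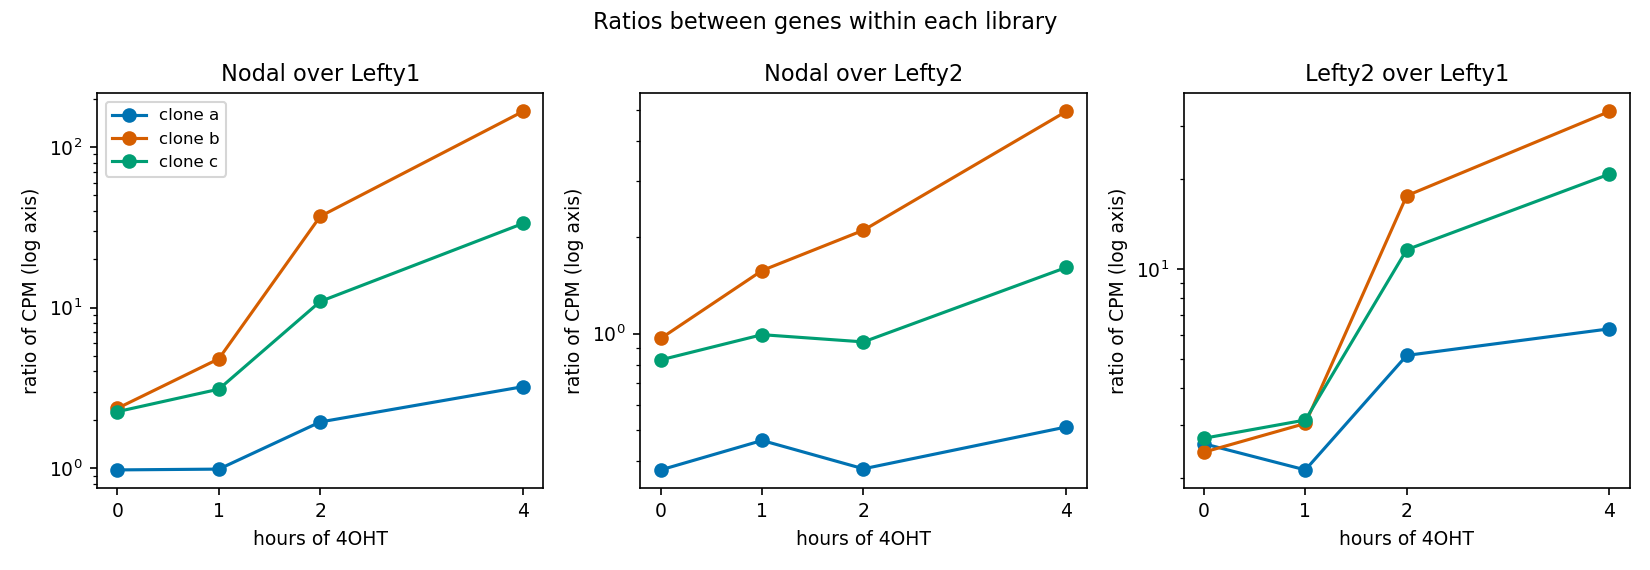
Ratio of CPM between 2 genes in the same library (vertical axes, log scale) against hours of 4OHT, 1 line per clone. Nodal over Lefty1 ends at 3.22 in clone a, 33.4 in clone c and 166 in clone b, and Lefty2 over Lefty1 starts between 2.44 and 2.72 and parts after 1 h.

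Foxh1 (chr15:76668225-76669948, minus strand), the forkhead factor that takes SMAD complexes to DNA, was at 30.3, 41.0 and 40.0 CPM untreated and 42.0, 46.4 and 43.0 CPM at 1 h. At 2 h it was at 40.1, 51.7 and 46.9 CPM and at 4 h at 44.2, 51.6 and 46.7 CPM. All 1 h and all 4 h libraries lay above all untreated ones, and clone a was the lowest at each time. Foxh1 rose by 0.36 ± 0.13 at 4 h, with adjusted p = 0.0492, next to the threshold. That call was lost with RLE size factors (0.0503), with no filter on low counts (0.0542), with the 2 groups alone in the fit (0.0971), and without any of 8 of the 12 libraries, with adjusted p up to 0.164 when 4 h b was left out. The libraries were the untreated ones of clones a and c, all 3 at 1 h, that of clone c at 2 h, and those of clones b and c at 4 h. With clone as a block the change was 0.36 (adjusted p = 0.0018) at 4 h and 0.32 (0.00599) at 2 h, which without the block was 0.32 ± 0.13 (0.1), or 0.41 (0.0442) without 2 h a.

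Skil (chr3:31095058-31122577, plus strand) encodes SnoN, a co-repressor that binds SMADs and is itself a target of the pathway. It was at 279.8, 216 and 178 CPM untreated and 256, 240.2 and 209 CPM at 1 h. At 2 h it was at 363, 427 and 357 CPM, above every other library, and at 4 h at 265, 286 and 256 CPM. The 4 h libraries lay between the extremes of the untreated ones and just above, with clone a below its own untreated level and clones b and c above theirs.

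Skil rose by 0.77 ± 0.14 at 2 h, with adjusted p = 0.00961, and the call held with each library left out in turn, with adjusted p at most 0.0494, but not without all of clone b (0.132) or clone c (0.234). In clones a, b and c the 2 h level was 130%, 198% and 200.3% of the untreated one. From 1 to 2 h the change was 0.70 ± 0.14 with adjusted p = 0.0777, or 0.00416 with the block, and 0.0481 without 4 h a. Between 2 and 4 h it was −0.51 ± 0.14 with adjusted p = 0.065, or 0.00737 with the block, and it was called without 0 h a (0.0273) or 0 h c (0.0402). At 4 h against untreated it was 0.26 ± 0.14 with adjusted p = 0.181, or 0.27 and 0.0488 with the block, and 0.45 with adjusted p = 0.0203 without 0 h a. Under the block the 4 h call held without clone a (1.38e-05) but was lost without clone b or clone c.

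Per kilobase of exon, the untreated level was highest for Tdgf1, at 257 ± 14.6 CPM per kb (SD, n = 3). Gdf3 (54.2 ± 2.15), Lefty2 (51.5 ± 21.9), Nodal (40.9 ± 5.04), Lefty1 (29.5 ± 12.4), Foxh1 (27.2 ± 4.34) and Skil (23.2 ± 5.29) followed, and each of these overlapped in range with the next. Acvr1b (13.9 ± 1.33), Acvr2b (8.18 ± 1.45) and Furin (0.659 ± 0.119) were lowest, and Acvr1b lay below Skil, Acvr2b below Acvr1b and Furin below Acvr2b with no overlap. Among the members the co-receptor thus stood well above its ligands and the receptors well below them, and Furin was at the bottom at every time. Pcsk6, a convertase that is not among the members, had an untreated mean of 71.1 CPM against 6.05 CPM for Furin, not scaled to length. Tdgf1 was first at each time, while Lefty1 went from the fifth place untreated to the ninth at 4 h, at 3.81 ± 5.64 CPM per kb.

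Among 50 other genes of the pathway, listed by role, 41 were tested. At 1 h 0 of them passed without the block (at an adjusted p of 0.05) and 2 with it, where 6.99% of all genes did. At 2 h 6 were higher and 1 lower, where 9.56% of all genes were higher and 6.64% lower, and with the block 12 and 5, where 40.6% of all genes were called. At 4 h 8 were higher and 6 lower, where 18.0% and 15.1% of all genes were, and with the block 14 and 10, where 26.2% and 25.7% were. Inhba, Gdf1, Mstn, Tgfb3, Acvr1c, Cer1, Fstl3, Gsc and Lhx1 had too few counts to be tested, with at most 20 in any library.

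Of 4 related ligands tested, 1 was called. Tgfb1, a TGF-beta ligand with its own receptors, was at 4.69, 6.33 and 5.99 CPM in libraries 0 h a, 0 h b and 0 h c and at 13.9, 41.4 and 35.1 CPM at 4 h. All 4 h libraries lay above all untreated ones, and clone a rose least. It rose by 1.81 ± 0.41 at 2 h (adjusted p = 0.0184) and 2.41 ± 0.42 at 4 h (0.00167). The 2 h call was lost, with adjusted p up to 0.0769, without 0 h a or 0 h b or 2 h b or 2 h c.

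Of 7 related receptors and co-receptors tested, Tgfbr2, the type II receptor for TGF-beta, rose by 2.60 ± 0.48 at 4 h (adjusted p = 0.0024), from 2.65, 3.58 and 4.29 CPM to 8.26, 30.5 and 25.2 CPM. At 2 h Tgfbr2 had 0.86 ± 0.47 (0.219, and 0.026 under the block). Its type I partner Tgfbr1 fell by 0.32 ± 0.08 at 4 h (0.0128), a call lost without 4 h c (0.06). The type II receptor Acvr2a rose by 0.61 ± 0.16 at 2 h (0.0292), a call lost without any of the 3 untreated libraries or 2 h b or 2 h c (at most 0.116), and 7.84% of its exon length overlaps Orc4 on the other strand. At 4 h Acvr2a had 0.37 ± 0.16 (0.0942, and 0.0296 under the block). Of 7 other antagonists and convertases, the convertase Pcsk7 rose by 0.37 ± 0.09 at 2 h (0.026), a call lost without 0 h a or 0 h b or 2 h b or 2 h c (at most 0.103), and 7.98% of its exon length overlaps Rnf214 on the other strand. At 4 h Pcsk7 had 0.18 ± 0.09 (0.158, and 0.0354 under the block).

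Of 16 SMADs and their regulators, 3 rose at 2 h. Smad7, an inhibitory SMAD that the pathway induces, was at 88.3, 83.4 and 103 CPM untreated and 171, 152 and 194 CPM at 2 h, and it rose by 0.91 ± 0.13 (adjusted p = 0.00374). Its changes of 0.67 ± 0.13 at 1 h (0.15) and 0.29 ± 0.13 at 4 h (0.104) were called under the block (0.000187 and 0.00152). The co-repressors Tgif1 and Tgif2 rose by 0.64 ± 0.12 (0.00893) and 0.61 ± 0.08 (0.00312), calls which like that of Smad7 held with each library left out. The exons of Tgif2 share 56.7% of their length with 5430405H02Rik on the other strand, so its reads are uncertain. At 4 h 4 were higher and 3 lower. Smad3, a receptor-activated SMAD like Smad2, was at 54.7, 46.1 and 60.6 CPM untreated, 37.0, 15.7 and 24.7 CPM at 2 h and 27.3, 4.68 and 12.1 CPM at 4 h. It fell by 1.88 ± 0.49 at 4 h (0.0132), a call lost without 4 h c (0.054), and at 2 h it had −1.06 ± 0.47 (0.137, and 0.012 under the block). All 2 h and 4 h libraries of Smad3 lay below all untreated ones. Smad2 was not called at 4 h (−0.14 ± 0.07, adjusted p = 0.151), with a mean of 86.3 CPM untreated and 78.2 CPM at 4 h. Tgif2 (0.34 ± 0.08, adjusted p = 0.00942) was higher at 4 h, and the ubiquitin ligases Rnf111 (−0.32 ± 0.07, 0.00572) and Trim33 (−0.27 ± 0.07, 0.0109) were lower.

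Of 8 textbook targets of Nodal and SMAD2/3 tested, Smad7, given above, was higher at 2 h. Pmepa1, a SMAD-binding inhibitor that the pathway induces, fell by 0.76 ± 0.17 at 2 h (adjusted p = 0.0174) and 0.86 ± 0.17 at 4 h (0.00342). The 2 h call was lost without 0 h c or 2 h b or 2 h c (at most 0.0729), and at 1 h Pmepa1 had −0.43 ± 0.17 (0.357, and 0.0337 under the block). The mesendoderm factors Eomes and T rose at 4 h by 2.34 ± 0.22 (9.01e-05) and 2.20 ± 0.39 (0.00202), Eomes from 2.59, 3.22 and 3.11 CPM to 10.4, 15.7 and 19.1 CPM. T was low, at a mean of 0.434 CPM untreated and 2.04 CPM at 4 h. Mixl1 (−0.41 ± 0.52, 0.575), Foxa2 (0.38 ± 0.45, 0.546) and Sox17 (1.04 ± 0.79, 0.333) of the same list were not called at 4 h. At 2 h Eomes had 0.61 ± 0.22 (0.0752, and 0.0404 under the block). The targets thus did not share a direction: at 4 h 2 were higher and 2 lower.

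The genes beside the Lefty pair were compared with it, within 100 kb of either gene. Downstream of Lefty1, Tmem63a (chr1:180942344-180975112, plus strand) had −1.24 ± 0.44 at 4 h (0.0513), and −1.35 ± 0.25 (0.00111) under the block. The next gene, Ephx1 (chr1:180976210-181020904, minus strand), fell by 1.42 ± 0.21 (0.000844). Upstream of Lefty2, Sde2 had 0.12 ± 0.08 and H3f3a 0.17 ± 0.10 at 4 h, with adjusted p = 0.279 and 0.235. Around Nodal, Eif4ebp2 had −0.07 ± 0.10 at 4 h (0.578), Pald1 rose by 0.88 ± 0.11 (0.000301) and Lrrc20 fell by 0.60 ± 0.18 (0.027).

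**Figure D4:**
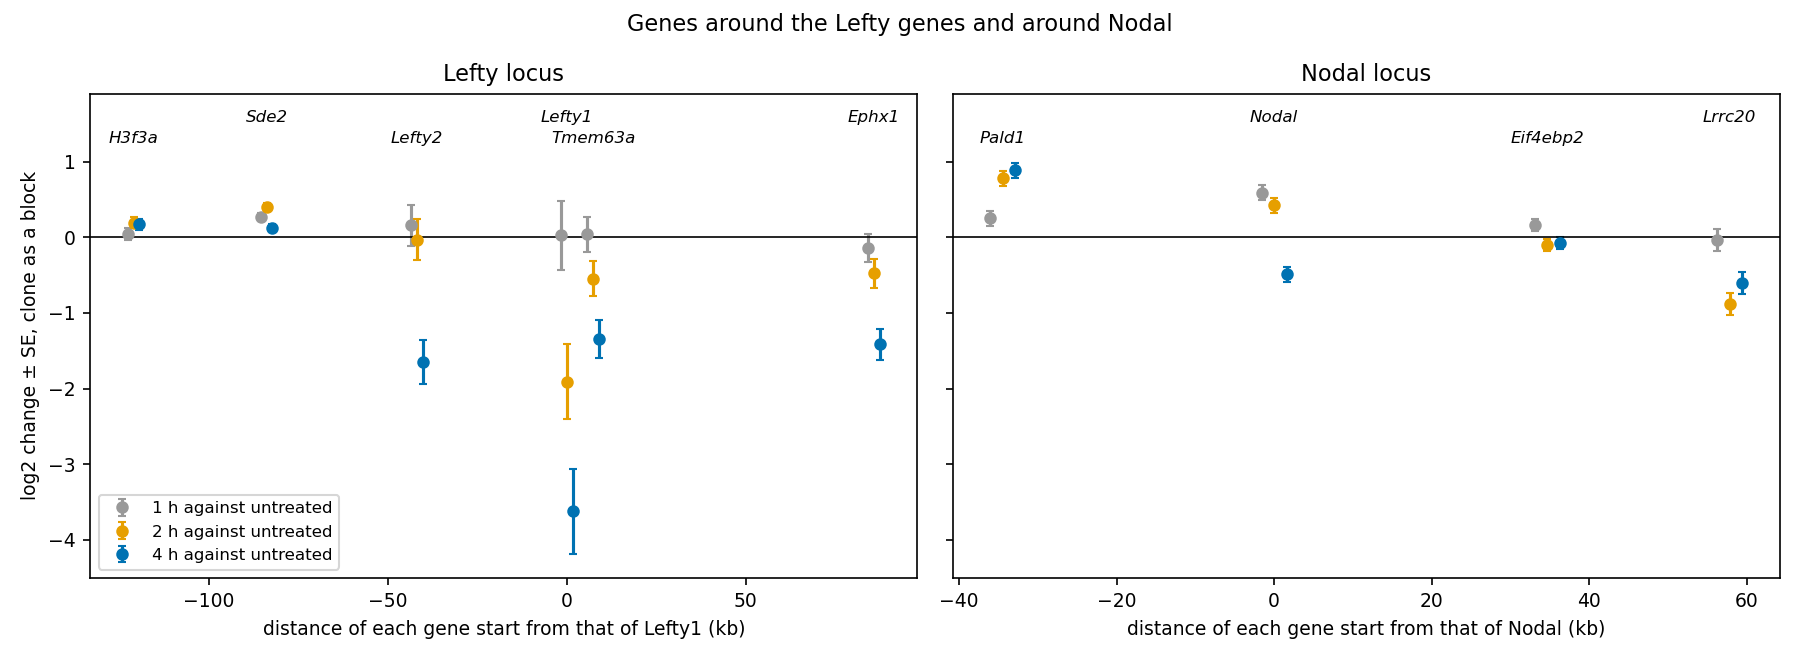
Fitted log2 change with its SE and clone as a block (vertical axes) of the genes named in the text around the Lefty genes (left) and Nodal (right), placed by the distance of each gene start from that of Lefty1 or Nodal in kb, with 1, 2 and 4 h in grey, orange and blue. On the left the 4 h values of Lefty2, Lefty1, Tmem63a and Ephx1 lie below −1, and those of Sde2 and H3f3a lie above 0.

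Tmem63a was also among the genes most like Lefty1 over the 12 libraries. The search took 11860 tested genes with a mean of at least 1 CPM, leaving out symbols that start with Gm and a digit or end in Rik. Among these, the genes with the highest Pearson correlation of log2 CPM with Lefty1 were Nipal3 (r = 0.990), Tmem63a (0.982) and Kif13a (0.980). For Lefty2 they were Adgra3 (0.971), Car12 (0.967) and Lsm14b (0.965). For Nodal they were Ap4m1 (0.964), Ranbp10 (0.945) and Kansl3 (0.940), and for Skil Hspa13 (0.961), Cdc37l1 (0.940) and Ghitm (0.937). Nipal3 fell by 0.71 ± 0.19 and Kif13a by 0.48 ± 0.15 at 4 h (adjusted p = 0.0164 and 0.0281), and Hspa13 rose by 0.35 ± 0.08 at 2 h (0.0181). Such correlations are descriptions: the 12 libraries come from 3 clones over a shared time course, and 1185 bases of the exons of Ap4m1 overlap Taf6 on the other strand.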

How the data were processed

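Gene counts of 12 libraries (4 groups of 3 clones) were read from the authors' deposited table, which holds raw counts per gene symbol. Per the submitters' processing notes STAR, featureCounts, DESeq and mm10 were used; their versions, and the annotation and strand setting, were not given in the sources used here. Counts were scaled by TMM and tested with edgeR 4.0.16 (R 4.3.3; filterByExpr, which kept 14185 of 25897 symbols; quasi-likelihood test; 4 group means; two-sided; Benjamini-Hochberg over all tested genes). Levels are CPM, counts scaled to the TMM library size, and log2 CPM used a prior count of 2. SE is the change over the square root of its F. Groups and clones follow the sample titles; the treatment protocol names 0 and 2 h alone. The labelled clones paired the libraries: deviations from group means of same-clone libraries correlated at 0.184 to 0.684 in all 18 pairs, and those of other clones at −0.568 to −0.024. Libraries of a group differed beyond sampling noise (chi-square over its degrees of freedom was 18.5 to 103 in 12 pairs). Alternatives were clone as a block, RLE size factors, DESeq2 1.42.0, limma-voom (limma 3.58.1), no filter, the 2 groups alone, and each library or clone left out. The test was also run on simulated counts that held no clone effect, so that check does not cover the differences between clones seen here. Positions, exon lengths and overlaps came from the GENCODE annotation of GRCm38 (mm10), promoters from RefSeq on GRCm38.p6. All 10 members were named at every time, with at most 4 other pathway genes per list and time, by smallest p among those called, and the 3 genes most like each of 4 members. Smad2 and Pcsk6, which were not called, were added beside Smad3 and Furin. Mixl1, Foxa2 and Sox17, also not called, were added beside Eomes and T. The values of some genes and 1 sequence are not reported here. Members and lists were chosen with earlier results of these data known. The count total of a library limits precision: 1 count was 0.0308 to 0.0408 CPM.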

Additional observations from a re-analysis of the deposited data

Results flagged for a closer look

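The effect of 4OHT on Nodal differed between treated times: all 3 clones were higher than untreated at 2 h and lower at 4 h, and edgeR's test of the difference between 4 h and 2 h gave −0.93 on the log2 scale (adjusted p = 0.0287). The same test gave −0.47 for Tdgf1 (adjusted p = 0.0192), which was 0.09 ± 0.09 above untreated at 2 h and 0.37 ± 0.09 below at 4 h. Both calls were lost without 2 h b, 2 h c or 4 h c, and with the 2 groups alone in the fit. Against untreated and without the block, Nodal was called neither at 2 h (adjusted p = 0.147) nor at 4 h (0.0865). Groups of 3 libraries were not tested for outlying samples.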

How the results depend on the processing

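Counts of the 10 members past the threshold, against untreated, were 0 at 1 h, 1 at 2 h and 5 at 4 h. With clone as a block they were 1, 4 and 10, and 2 at 1 h with the block and without clone a, an alternative chosen after seeing the data like the other fits with the block and 2 clones. At 2 h they were 2, 0 and 0 without clones a, b and c, and with the block 4 and 2 without clones a and b. At 4 h they were 8, 0 and 0 without clones a, b and c, 9 with the block and without clone a, 3 without the low-count filter and 1 with the 2 groups alone. From 1 to 2 h the count was 0; it was 2 with the block, 1 by DESeq2, 1 without clone a and 3 with the block and without clone a. From 2 to 4 h it was 2; it was 7 with the block, 4 by DESeq2, 0 with the 2 groups alone, 6, 0 and 0 without clones a, b and c, and 8, 4 and 1 with the block too. Over any treated time it was 5; it was 9 with the block and also without clone a then, 1 and 0 without clones b and c, and 3 with the block and without clone c. For the other pathway genes at 2 h it was 7; it was 17 with the block, 11, 1 and 0 without clones a, b and c, and 19 with the block and without clone a. With 1 library left out in turn the counts ran from 1 to 3 at 2 h, 2 to 7 at 4 h, 0 to 1 from 1 to 2 h, 0 to 6 from 2 to 4 h, 3 to 7 at any time and 3 to 11 for the other genes. The clone pairing changed no other call of a member beyond those given in the text. With the block the share of all genes called also rose, from 16.2% to 40.6% at 2 h and from 33.1% to 52.0% at 4 h. For 4 h against 2 h that share rose from 4.68% to 22.0%. It is not given here for the other settings, so their counts of members cannot be set against it.

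Changes near 0 reversed. At 1 h Gdf3 was −0.03 but 0.0175 without clone b, or 0.0169 with the block too, and Lefty1 was 0.21 but −0.104 without clone a, or −0.116 with the block too. At 2 h Gdf3 was −0.02 but 0.00814 without clone b, or 0.00755 with the block too. Lefty2 at 2 h was 0.07 but −0.0295 with the block, −0.0402 by limma-voom, −0.0557 and −0.0186 without clones a and c, and −0.124 and −0.221 with the block too. With 1 library left out, the 1 h changes ran from −0.0518 to 0.00513 for Gdf3, −0.51 to 0.61 for Lefty1, −0.255 to 0.578 for Lefty2 and −0.0763 to 0.254 for Skil. The 2 h changes ran from −0.0436 to 0.0133 for Gdf3 and −0.465 to 0.481 for Lefty2. The cause of these moves was not tested. Of the alternatives for single members, 793 kept both direction and side of the threshold, 51 lost a call, 69 gained one and 23 reversed. Under RLE scaling the median change of all genes stayed within 0.02 of 0.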
